A study of Mus musculus with 6 samples.

Results

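The genes described here are 40 interferon-stimulated genes and interferon regulators, chosen by gene symbol from the interferon pathway. All 40 were found among the 22173 genes measured in whole mouse retina. The OIR libraries, 3 in number, came from wild-type C57BL/6J pups with oxygen-induced retinopathy (OIR), kept in 75% oxygen between postnatal days 7 and 12 and in room air afterwards until day 17. The 3 Control libraries came from wild-type C57BL/6J pups of the same age that stayed in room air. In this model high oxygen closes growing retinal vessels, and the return to room air leaves a hypoxic retina that grows abnormal vessel tufts. The series asks which retinal genes change with that pathological vessel growth. Separate animals or pools are not told apart in the labels, so p-values measure the spread between these libraries, which may be technical.

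Interferons are secreted proteins that warn tissue of infection or damage. Type I interferons bind the receptor chains IFNAR1 and IFNAR2, and the kinases JAK1 and TYK2 then activate STAT proteins, among them STAT2, which joins IRF9 and binds the interferon-stimulated response element (ISRE) in the promoters of target genes. Interferon gamma binds IFNGR1 and IFNGR2 and acts through STAT dimers at the gamma-activated site (GAS). IRF transcription factors both start interferon production and respond to it, and in the nervous system IRF8 is a factor of microglia.

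The values are RPKM, reads scaled by the length of the gene and the depth of the library, so levels of different genes can be set side by side. Depth recovered from the values was 35615501 to 38025623 reads per library. The labelled tissue was checked by 6 markers of Müller cells, the main glia of the retina, which summed to 1942 to 2183 RPKM in OIR and 2138 to 2426 RPKM in Control. Lens genes made up 0.553% of all reads in OIR 2 and 6.35% in Control 3, against 0.0149% to 0.0581% in the other 4 libraries, so results that rest on Control 3 or OIR 2 are also given without them. Sums of microglial, endothelial, pericyte, astrocyte and haemoglobin genes were higher in every OIR library than in every Control library, and the sum of 6 ganglion and amacrine cell markers was lower, at 144.1 to 190.8 RPKM in OIR and 206.7 to 245.3 RPKM in Control. The 16 markers of microglia and macrophages summed to 140.7 to 190.3 RPKM in OIR and 62.6 to 68.9 RPKM in Control. Of the 15 tested 13 were called higher, beside 11.6% higher and 7.22% lower over all tested genes. Of the 6 Müller markers 2 were called higher and 4 lower, and of the 6 ganglion and amacrine markers 2 were called lower. The 12 endothelial markers summed to 123.7 to 134.3 RPKM in OIR and 70.3 to 75.6 RPKM in Control. The 4 astrocyte markers summed to 40.2 to 86.1 RPKM in OIR and 15.8 to 19.9 RPKM in Control. Most of this sum in OIR was Gfap, at 28.0 to 74.1 RPKM, against 5.65 to 8.60 RPKM in Control. Of the other tested astrocyte markers, Pdgfra rose (adjusted p 0.00929) and S100b overlapped between the groups (adjusted p 0.788). The 4 haemoglobin genes summed to 83.1 to 156.6 RPKM in OIR and 46.5 to 55.0 RPKM in Control. Blood leukocyte genes were low, at 1.85 to 4.68 RPKM in OIR and 1.26 to 1.78 RPKM in Control summed over 16 genes, none of which was tested. In whole tissue, more cells of a type and more RNA per cell cannot be told apart.

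Of the 40 members, 5 IRF transcription factors, the ubiquitin ligase gene Trim25 and the GTPase gene Gbp2 were higher in OIR, and no antiviral effector gene passed the test. The 7 tested effectors still had a median log2 fold change of 0.71, against 0.43 for the 7 tested IRF and Stat2 genes. The tested members were the 25 with at least 1 RPKM in at least 3 libraries. By limma on log2(RPKM + 1), with an adjusted p under 0.05, 7 members rose and none fell. They were Irf1, Irf3, Irf7, Irf8, Irf9, Trim25 and Gbp2. Over all 12112 tested genes 18.8% were called, 11.6% higher and 7.22% lower. At an unadjusted p under 0.05, 16 of the 25 were higher and 2, Ifit2 and Ifit3, were lower, beside 20% higher and 14% lower over all tested genes. The median log2 fold change of the tested members was 0.35, against 0.03 over all tested genes. Irf8, Gbp2 and Ifitm1 passed the filter only through their OIR values, so counts over the tested members are descriptions. By the limma-voom test on recovered reads, which could test 39 members, 11 rose and none fell, beside 11.4% higher and 6.98% lower, together 18.4%, of the 14995 genes in that fit. Restricted to the genes tested by limma, limma-voom called 12 members higher, beside 12% higher and 8.12% lower, together 20.1%. Without any filter 6 members rose, beside 6.73% of genes higher and 2.95% lower, together 9.68%, and the calls of Irf1, Irf3 and Irf9 ended, at 0.0697, 0.0570 and 0.0655, while Ifitm2 and Ifitm3 were added. With a filter and pseudocount of 0.1 RPKM 8 rose, beside 10.6% higher and 5.69% lower, together 16.3%. With median-of-ratios scaling 6 rose, beside 10.6% higher and 10.8% lower, together 21.4%. All 3 OIR values lay above all 3 Control values in 18 of the 40 members, 45%, against 20.5% of the 17953 genes detected in any library, and in 15 of the 25 tested members, against 23.6% of tested genes. No member had all OIR values below all Control values, against 12.2% of detected and 15% of tested genes.

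The count of 7 moved with single libraries, as did the share of all tested genes called. Without OIR 1, 3 members were called higher, beside 4.24% of all tested genes higher and 1.75% lower. Without OIR 2 it was 12 higher and 1 lower, beside 14.5% higher and 10.7% lower. Without OIR 3 it was 3 higher and 1 lower, beside 5.75% higher and 2.87% lower. Without Control 1 it was 3 higher, beside 5.43% higher and 2.19% lower, and without Control 2 it was 5 higher, beside 7.77% higher and 3.48% lower. Without Control 3 it was 13 higher, beside 9.97% higher and 8.83% lower. Members not called with all libraries, and given below as called without a named library, did not pass with any other single library left out. The calls of Irf7, Irf8 and Gbp2 held in each of the 6 fits that left out 1 library. The filter was not repeated in these fits. Irf8 and Gbp2 passed it only through their OIR values, and would fall under it with any OIR library left out.

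**Figure D1:**
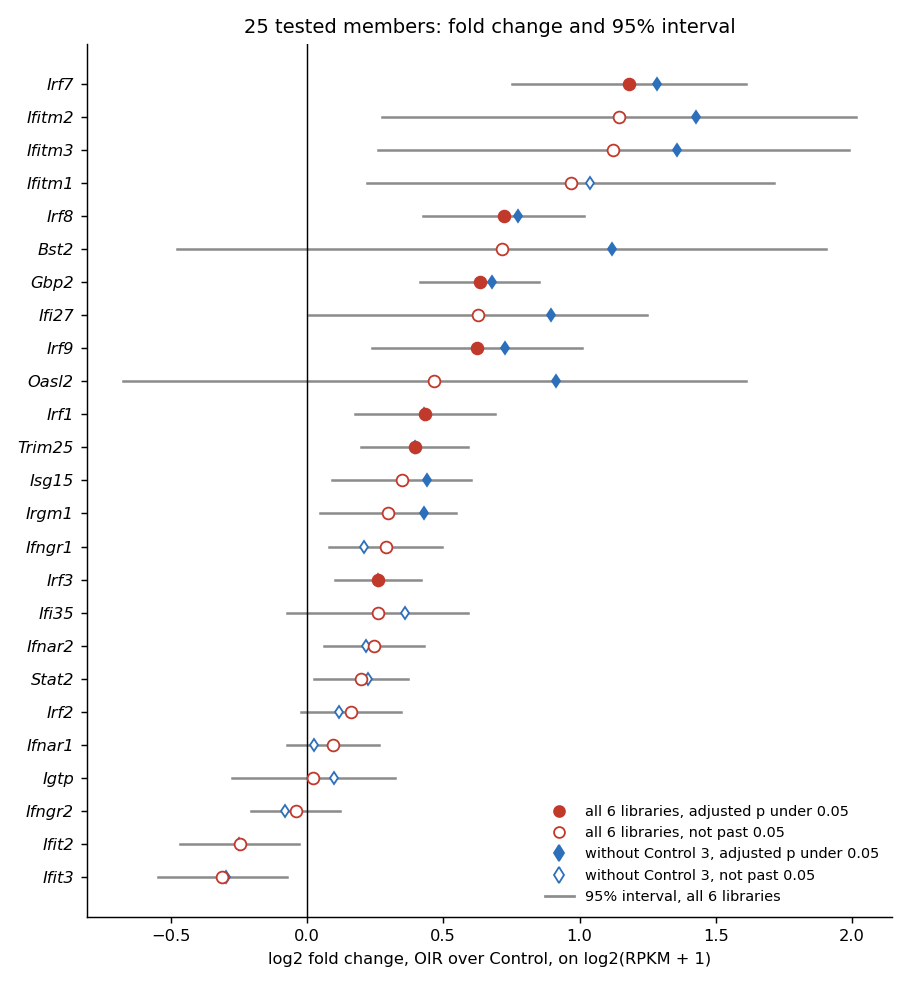
Log2 fold change of OIR over Control for the 25 tested members (x axis, log2(RPKM + 1) scale), with the 95% interval as a line, from all 6 libraries (circles) and without Control 3 (diamonds); filled symbols passed an adjusted p of 0.05. Irf7 has the highest fold change at 1.18, and the 3 negative values belong to Ifit3, Ifit2 and Ifngr2.

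The receptor chains for both interferon types were all detected and none passed the test. Ifnar1, a chain of the type I receptor, was at 10.4, 10.2 and 10.3 RPKM in OIR 1, 2 and 3, and at 10.1, 10.1 and 8.63 RPKM in Control 1, 2 and 3. Its log2 fold change was 0.10, with a 95% interval from -0.07 to 0.26. Ifnar2, the partner chain, was lower in level, at 1.79 ± 0.0562 RPKM in OIR and 1.35 ± 0.0952 RPKM in Control (SD, n = 3 each). Its OIR values were all above its Control values, and its adjusted p was 0.0601 by limma and 0.0317 by limma-voom on reads. Ifngr1, the ligand-binding chain of the interferon gamma receptor, was at 19.4 ± 1.87 RPKM in OIR and 15.7 ± 1.79 RPKM in Control, with 1 OIR value inside the Control range. Its adjusted p was 0.0559, and 0.0119 without OIR 2 or 0.0423 without Control 2. With any other single library left out it was 0.132 to 0.186. Ifngr2, the signalling chain, was at 14.3 ± 1.01 RPKM in OIR and 14.7 ± 0.699 RPKM in Control, with an interval of the log2 fold change from -0.20 to 0.12. The ligands were close to undetected. Of 21 interferon genes looked for, 20 were at 0 in all 6 libraries, and the other, Ifnz, was at 0.0184 RPKM in Control 2 alone.

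The IRF family and Stat2 form the transcriptional arm, and all 8 members of it had OIR values above every Control value. That held for 20.5% of the genes detected in any library. The group was set with earlier results known, so the count is a description. Irf7, the IRF that amplifies type I interferon production, had the highest log2 fold change of the tested members. It was at 14.7, 10.9 and 16.0 RPKM in OIR 1, 2 and 3, against 4.18, 6.05 and 6.48 RPKM in Control 1, 2 and 3. The lowest OIR library, OIR 2, was still above the highest Control. The group means were 13.9 ± 2.65 RPKM in OIR and 5.57 ± 1.22 RPKM in Control, a ratio of 2.49, with a log2 fold change of 1.18 (standard error 0.181, adjusted p 0.00788). Irf8, which microglia and other myeloid cells need to develop, was at 2.04, 1.18 and 1.89 RPKM in OIR 1, 2 and 3. In Control 1, 2 and 3 it was at 0.446, 0.691 and 0.744 RPKM. The ratio of the means was 2.72, with a log2 fold change of 0.72 (standard error 0.134, adjusted p 0.00661). Irf8 passed the filter only through its OIR values. OIR 2 was the lowest OIR library for both genes, and for the summed microglial markers too, at 140.7 RPKM, where OIR 1 had 182.5 RPKM and OIR 3 had 190.3 RPKM. The part of the microglial level in these differences was not tested.

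Irf9 and Stat2 encode the DNA-binding complex of type I signalling. Irf9 was at 8.40, 5.42 and 8.03 RPKM in OIR 1, 2 and 3, against 3.50, 4.40 and 5.12 RPKM in Control 1, 2 and 3. OIR 2 lay just above Control 3. Its log2 fold change was 0.62 (standard error 0.167, adjusted p 0.0377). Under median-of-ratios scaling the adjusted p was 0.0514, and the call also ended without OIR 1, OIR 3, Control 1 or Control 2, at 0.127, 0.129, 0.107 and 0.111. Stat2 was at 9.51 ± 0.791 RPKM in OIR and 8.15 ± 0.304 RPKM in Control, with an adjusted p of 0.101, and 0.0373 without OIR 2. The exons of Irf9 share 123 bases with Rnf31 on the same strand, and how such reads were counted is not given in the sources used here.

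Irf1, an early target of interferon gamma, was at 2.53, 1.99 and 3.07 RPKM in OIR 1, 2 and 3, against 1.81, 1.41 and 1.58 RPKM in Control 1, 2 and 3. The groups did not overlap, though OIR 2 and Control 1 were close. Its log2 fold change was 0.43 (standard error 0.117, adjusted p 0.0282), and the call ended in 5 of the 6 fits that left out 1 library, at 0.0513 without Control 1, 0.0697 without Control 3, 0.0918 without Control 2, 0.0972 without OIR 1 and 0.102 without OIR 3. Irf3, a constitutive IRF that sensors of viral nucleic acid switch on, had the highest level of the family. It was at 32.1, 27.5 and 28.1 RPKM in OIR 1, 2 and 3, against 23.7, 24.6 and 24.2 RPKM in Control 1, 2 and 3. The rise was small in proportion, a ratio of 1.21 (adjusted p 0.0301), and ended without OIR 1, OIR 3, Control 1 or Control 2, at 0.144, 0.0646, 0.103 and 0.0650. Irf2, which competes with Irf1 for the same sites, was at 2.84 ± 0.0851 RPKM in OIR and 2.44 ± 0.212 RPKM in Control and did not pass (adjusted p 0.198). Irf5, an IRF of myeloid cells, lay under the filter. It was at 0.977, 0.748 and 0.819 RPKM in OIR 1, 2 and 3, against 0.469, 0.294 and 0.586 RPKM in Control 1, 2 and 3, from 35 to 116 reads. By limma-voom on reads it rose, with an adjusted p of 0.0372. Irf3, Irf5 and Irf7 overlap exons of genes on the opposite strand (Bcl2l12, Tnpo3 and Phrf1), and strand use is not given in the sources used here.

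**Figure D2:**
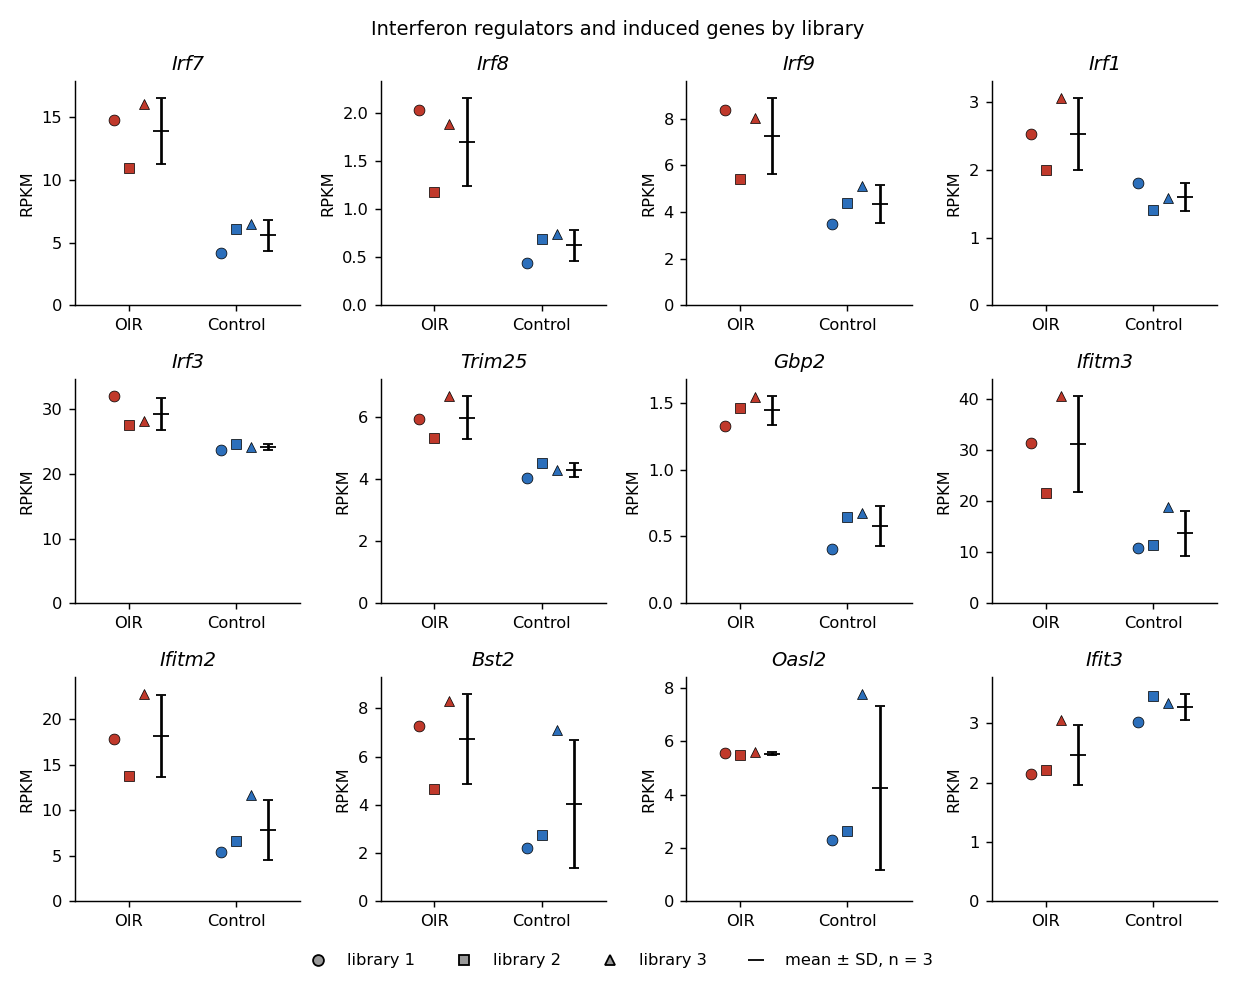
RPKM (y axes, from 0) of 12 members in each OIR and Control library, with mean ± SD (n = 3). For the IRF genes, Trim25 and Gbp2 the groups do not overlap, while for Bst2 and Oasl2 the Control 3 triangle lies at 7.09 and 7.79 RPKM, far above Control 1 and Control 2.

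Promoter letters are shown for the 5 members with the highest log2 fold change among those that rose. Windows with and without a match to the searched cores can thus be read side by side. Windows came from RefSeq (GRCm38.p6), reach from 250 bases before the annotated start to 50 bases after it, and were found for 34 of the 40 members, and not for Oas2, Parp14, Dhx58, Usp18, Rtp4 and Ifi27. The ISRE core was searched on both strands as GAAA, any pair of bases and GAAA again, and the GAS core as TTCNNNGAA, which reads the same on both. Of these 5, Irf8 and Irf1 held GAS cores and Gbp2 an ISRE core, and the windows of Irf7 and Irf9 held neither. The 250 bases before the start follow, from chr7:141266425-141266674 (minus strand), chr8:120736108-120736357 (plus strand), chr3:142620413-142620662 (plus strand), chr14:55603735-55603984 (plus strand) and chr11:53769764-53770013 (plus strand), each in the direction of the gene, with matches in capitals.
Irf7: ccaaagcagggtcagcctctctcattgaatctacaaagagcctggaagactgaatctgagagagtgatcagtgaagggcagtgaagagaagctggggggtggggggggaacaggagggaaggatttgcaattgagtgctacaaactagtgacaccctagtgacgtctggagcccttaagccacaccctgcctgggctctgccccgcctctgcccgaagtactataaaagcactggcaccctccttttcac
Irf8: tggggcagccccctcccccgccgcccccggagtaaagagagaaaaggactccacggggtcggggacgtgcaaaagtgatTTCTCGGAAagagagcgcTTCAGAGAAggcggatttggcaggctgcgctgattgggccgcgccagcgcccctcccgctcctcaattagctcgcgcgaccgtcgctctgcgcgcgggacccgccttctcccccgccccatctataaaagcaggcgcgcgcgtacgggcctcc
Gbp2: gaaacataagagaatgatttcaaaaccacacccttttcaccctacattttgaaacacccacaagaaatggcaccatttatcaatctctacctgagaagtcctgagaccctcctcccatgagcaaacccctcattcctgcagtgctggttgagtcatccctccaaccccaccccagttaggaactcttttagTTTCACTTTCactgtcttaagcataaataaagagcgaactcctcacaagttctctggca
Irf9: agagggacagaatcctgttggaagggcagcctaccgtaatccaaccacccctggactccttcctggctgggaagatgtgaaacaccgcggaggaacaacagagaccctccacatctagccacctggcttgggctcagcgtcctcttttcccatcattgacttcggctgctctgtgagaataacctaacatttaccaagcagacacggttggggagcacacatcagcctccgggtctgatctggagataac
Irf1: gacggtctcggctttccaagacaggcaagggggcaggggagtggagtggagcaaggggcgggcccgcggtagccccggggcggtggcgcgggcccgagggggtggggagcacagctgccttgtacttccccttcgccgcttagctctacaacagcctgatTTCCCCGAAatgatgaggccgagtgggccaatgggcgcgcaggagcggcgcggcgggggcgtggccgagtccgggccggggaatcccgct

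The 2 GAS cores of Irf8, TTCTCGGAA and TTCAGAGAA, begin at 171 and 153 bases before the start (positions -171 and -153), that of Irf1, TTCCCCGAA, at position -90. The core of Gbp2, written on the minus strand as TTTCACTTTC, begins at position -59. Over the 34 members with a window, 16 held an ISRE core, 47.1%, against 3.99% of the 27025 genes with windows. A GAS core stood in 12 of the 34, 35.3%, against 9.55% of all genes, and 5 members held both. Of the 7 members that rose, 1 held an ISRE core and 2 a GAS core. A match is a description of letters and no evidence of binding. Only exact cores inside the window were searched, so a window without a match may still hold a response element.

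The sensors of viral RNA in the list were low apart from Trim25. Trim25, a ubiquitin ligase that acts with the RNA sensor RIG-I, was at 5.91, 5.31 and 6.67 RPKM in OIR 1, 2 and 3, against 4.04, 4.51 and 4.29 RPKM in Control 1, 2 and 3. The groups were clearly apart, and its log2 fold change was 0.40 (standard error 0.0889, adjusted p 0.0138). The call ended narrowly without OIR 1, OIR 3 or Control 1, at 0.0557, 0.0605 and 0.0607. Dhx58, which encodes the regulator LGP2, was at 0.957 ± 0.162 RPKM in OIR and 0.682 ± 0.0319 RPKM in Control, without overlap. Ifih1, the gene of the sensor MDA5, was at 0.861 ± 0.0730 RPKM in OIR and 0.799 ± 0.264 RPKM in Control, with Control 3 the highest of the 6 libraries. Neither passed in the limma-voom test, at adjusted p of 0.218 and 0.660.

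The ISG15 system attaches the small protein ISG15 to other proteins, and USP18 removes it and damps the receptor. Isg15 was at 1.57, 1.19 and 1.74 RPKM in OIR 1, 2 and 3, against 0.889, 0.785 and 1.23 RPKM in Control 1, 2 and 3. Control 3 lay above OIR 2, and the adjusted p was 0.0584, or 0.0403 without Control 3 and 0.0120 without OIR 2. Usp18 was at 0.565, 0.432 and 0.564 RPKM in OIR 1, 2 and 3, against 0.152, 0.259 and 1.24 RPKM in Control 1, 2 and 3. Control 3, with 78 reads, was the highest library, and Control 1, with 10 reads, the lowest.

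Of the 13 antiviral effectors 7 were tested and none passed, and the others lay under the filter. IFITM proteins block the fusion of viruses with cell membranes. Ifitm3 was at 31.4, 21.6 and 40.5 RPKM in OIR 1, 2 and 3, against 10.9, 11.4 and 18.8 RPKM in Control 1, 2 and 3. Ifitm2 was at 17.9, 13.8 and 22.8 RPKM in OIR 1, 2 and 3, against 5.42, 6.61 and 11.6 RPKM in Control 1, 2 and 3. Neither gene overlapped between the groups, and in each OIR 3 was highest, OIR 2 lowest of OIR and Control 3 highest of Control. The ratios of the means were 2.27 for Ifitm3 and 2.30 for Ifitm2, with adjusted p of 0.0840 and 0.0817. Ifitm2 passed by limma-voom, at 0.0237, and Ifitm3 did not, at 0.0605. Without Control 3 both were called by limma, at 0.0313 and 0.0153 and log2 fold changes of 1.36 and 1.43. Ifitm1 was at 2.32, 1.23 and 3.68 RPKM in OIR 1, 2 and 3, against 0.342, 0.874 and 0.845 RPKM in Control 1, 2 and 3, the largest ratio in the list at 3.51. It did not pass (adjusted p 0.0805), and passed without OIR 2, at 0.00470, and by limma-voom, at 0.0369. The IFITM genes are similar in sequence, so their values are uncertain for each single gene.

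Bst2 and Oasl2 showed the split of the Control libraries. Bst2, the gene of tetherin, which holds budding virus at the cell surface, was at 7.27, 4.66 and 8.30 RPKM in OIR 1, 2 and 3, against 2.23, 2.77 and 7.09 RPKM in Control 1, 2 and 3. Oasl2, of the oligoadenylate synthetase family, was at 5.55, 5.48 and 5.59 RPKM in OIR 1, 2 and 3, against 2.32, 2.63 and 7.79 RPKM in Control 1, 2 and 3. Control 3 lay within the OIR range for Bst2 and above it for Oasl2. With all libraries the adjusted p was 0.337 for Bst2 and 0.512 for Oasl2, and without Control 3 both were called, at 0.0230 and 0.00256, with log2 fold changes of 1.12 and 0.92.

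Ifit2 and Ifit3, which bind or help to bind viral RNA, had lower mean levels in OIR. Ifit3 was at 2.15, 2.21 and 3.05 RPKM in OIR 1, 2 and 3, against 3.03, 3.46 and 3.34 RPKM in Control 1, 2 and 3. Ifit2 was at 2.33, 2.71 and 2.14 RPKM in OIR 1, 2 and 3, against 3.40, 2.67 and 3.01 RPKM in Control 1, 2 and 3. For each gene 1 OIR library reached into the Control range. Neither passed, at a log2 fold change of -0.31 for Ifit3 (adjusted p 0.0662) and -0.25 for Ifit2 (adjusted p 0.103), but Ifit3 was called lower without OIR 3, at 0.0239, and Ifit2 without OIR 2, at 0.0399. Ifit1 was at 0.481 ± 0.0895 RPKM in OIR and 0.463 ± 0.301 RPKM in Control, again with Control 3 highest. Ifit3b, a near-identical copy of Ifit3 outside the 40, was called lower, at 1.29 ± 0.269 RPKM in OIR and 2.32 ± 0.259 RPKM in Control (adjusted p 0.00788), and reads of the pair cannot be assigned with certainty.

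The other effectors were at 0.404 RPKM or less in each library. Isg20, an RNA exonuclease gene, was at 0.261 ± 0.0936 RPKM in OIR and 0.173 ± 0.0849 RPKM in Control. Rsad2, the gene of viperin, was at 0.207 ± 0.0921 RPKM in OIR and 0.123 ± 0.0434 RPKM in Control. The oligoadenylate synthetase genes Oas1a, Oas2 and Oas3, whose products activate the RNA-degrading enzyme RNase L, stayed between 0.00661 and 0.404 RPKM, with 1 to 28 reads per library. By limma-voom the adjusted p was 0.728 for Oas1a and 0.494 for Oas3, and Oas2 was not tested. Oas1a had 17, 4 and 11 reads in OIR 1, 2 and 3, against 1, 6 and 28 reads in Control 1, 2 and 3.

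ISRE cores of effector and GTPase genes are shown because their letters repeat from gene to gene. They come from chr4:156200863-156200908 (minus strand), chr19:34640773-34640825 (plus strand), chr19:34583361-34583428 (plus strand), chr8:71537575-71537614 (minus strand), chr7:140955986-140956019 (minus strand) and chr11:48871423-48871462 (minus strand). Each is written in the direction of the gene, with matches in capitals, overlapping cores run together, and in Bst2 the first 9 capitals are a GAS core that overlaps the ISRE cores.
Isg15: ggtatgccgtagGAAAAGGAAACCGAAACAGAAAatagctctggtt
Ifit1: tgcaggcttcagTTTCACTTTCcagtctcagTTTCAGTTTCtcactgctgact
Ifit3: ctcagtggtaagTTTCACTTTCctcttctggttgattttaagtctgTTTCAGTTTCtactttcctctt
Bst2: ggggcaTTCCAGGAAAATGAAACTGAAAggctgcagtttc
Ifitm2: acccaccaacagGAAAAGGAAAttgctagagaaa
Irgm1: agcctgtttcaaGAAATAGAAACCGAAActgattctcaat

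Isg15 held 3 cores in a row, and Ifit1, Ifit3, Bst2 and Irgm1 held 2 each. The genes shown were chosen after their values were seen. Irgm1 and Ifitm2 had all OIR values above all Control values. Bst2, Isg15 and Ifit1 overlapped with higher OIR means, and Ifit3 had a lower OIR mean. Among the other members with an ISRE core, Gbp2, Ifitm3, Irf2 and Stat2 had all OIR values above all Control values. Ifih1, Igtp, Oas3 and Rsad2 overlapped with higher OIR means, and Gbp3 and Oas1a overlapped with lower ones.

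The interferon-induced GTPases act against pathogens inside cells. Gbp2, a guanylate-binding protein gene, was at 1.32, 1.46 and 1.54 RPKM in OIR 1, 2 and 3, against 0.405, 0.648 and 0.675 RPKM in Control 1, 2 and 3. Its OIR values were tight and far from Control, with a ratio of 2.50 and a log2 fold change of 0.63 (standard error 0.0990, adjusted p 0.00301). Gbp2 passed the filter only through those OIR values. Gbp3 was at 0.869, 0.877 and 0.920 RPKM in OIR 1, 2 and 3, against 0.581, 0.489 and 1.67 RPKM in Control 1, 2 and 3, so that Control 3 was again highest. Irgm1 was at 2.09 ± 0.0767 RPKM in OIR and 1.54 ± 0.416 RPKM in Control, with an adjusted p of 0.0892, or 0.0184 without Control 3. Igtp was at 2.53 ± 0.694 RPKM in OIR and 2.44 ± 0.333 RPKM in Control, with a log2 fold change of 0.02 whose sign turned under other settings. Its exons share 162 bases with Irgm2.

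Of the remaining induced genes none passed. Ifi27, a mitochondrial and nuclear-envelope protein gene, was at 4.16, 4.95 and 5.42 RPKM in OIR 1, 2 and 3, against 1.81, 2.48 and 4.45 RPKM in Control 1, 2 and 3. Control 3 lay above OIR 1, and the adjusted p was 0.143, or 0.00939 without Control 3. Ifi35, whose product pairs with NMI, was at 3.06 ± 0.769 RPKM in OIR and 2.36 ± 0.426 RPKM in Control (adjusted p 0.252, and 0.0118 without OIR 2). Parp14, an ADP-ribosyl transferase gene, was at 0.818 ± 0.174 RPKM in OIR and 0.572 ± 0.0872 RPKM in Control, without overlap, and did not pass by limma-voom, at 0.0865. Xaf1, an inhibitor of the caspase blocker XIAP, was at 1.06 ± 0.390 RPKM in OIR and 0.801 ± 0.336 RPKM in Control. Rtp4 was at 0.433 ± 0.199 RPKM in OIR and 0.383 ± 0.164 RPKM in Control, and Ifi44 at 0.169 ± 0.0277 RPKM in OIR and 0.180 ± 0.132 RPKM in Control.

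Control 3 stood out among the Controls for many of these genes, a pattern seen after the values were known. It was the highest Control in 27 of the 40 members, 67.5%, against 24.5% of the genes detected in any library, and in 14 of the 25 tested, against 19.5% of tested genes. It was at least 1.5 times the mean of Control 1 and Control 2 in 16 members, 40%, against 12.5% of those genes, and among the tested members in 6 of 25, against 2.19% of tested genes. The ratio was 8.33 for Oas1a, 6.02 for Usp18, 3.15 for Oasl2, 3.12 for Gbp3, 2.99 for Ifi44, 2.84 for Bst2 and 2.61 for Ifit1. The 13 members in which Control 3 was not the highest Control were the 4 receptor chains, Irf1, Irf2, Irf3, Dhx58, Trim25, Ifit2, Ifit3, Oas2 and Ifitm1. Their ratios ran from 0.835 for Oas2 to 1.03 for Ifit3, except Ifitm1 at 1.39. In 7 members Control 3 was the highest of all 6 libraries, 17.5% of the list, against 11.3% of the genes detected, and 1 of these, Oasl2, was tested, against 8.4% of tested genes. The OIR values were all above Control 1 and Control 2 in 27 members, 67.5%, against 25.2% of the genes detected. OIR 2 was the lowest OIR library in 27 members, 67.5%, against 38.3% of the genes detected, and in 18 of the 25 tested, against 41.1% of tested genes. Beside the Control 3 values stands the lens share of 6.35% in that library, and its part was not tested. The median-of-ratios scaling factor was 0.950 for Control 3 and 1.004 to 1.020 for the other libraries. The values were not divided by it for these shares, so a shift of the whole library enters them. The same holds for the shares of genes with all OIR values above or below Control. The microglial sum of Control 3, 68.9 RPKM, stood beside 62.6 and 64.6 RPKM in Control 1 and Control 2. Of the 13 members with the ratio of at least 1.5 and a promoter window, 8 held an ISRE core, as did 8 of the other 21. A GAS core stood in 4 of the 13 and in 8 of the other 21, and neither split was tested.

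**Figure D3:**
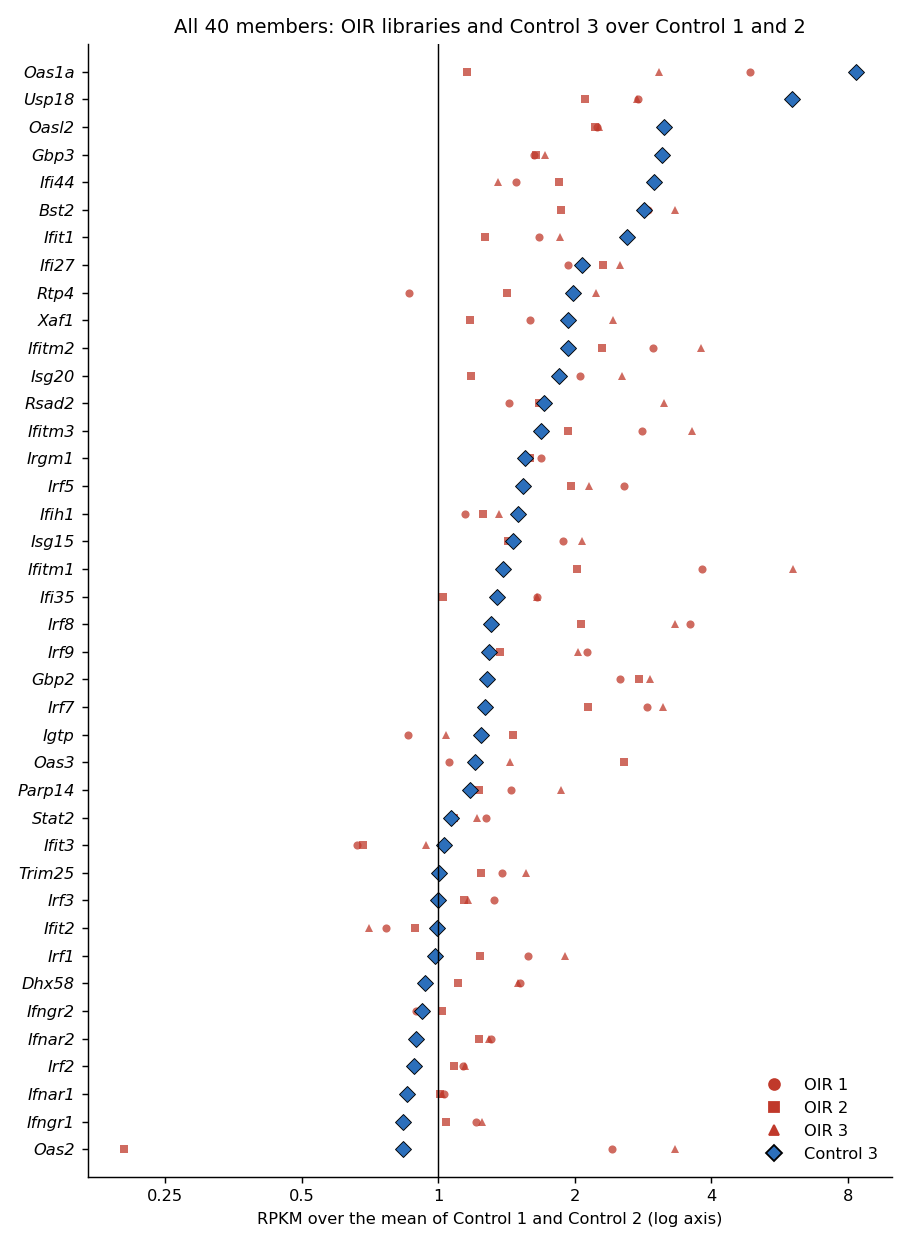
Value of each OIR library and of Control 3 over the mean of Control 1 and Control 2 (x axis, log scale) for the 40 members, ordered by Control 3. Control 3 reaches 8.33 for Oas1a and 6.02 for Usp18, where it exceeds all OIR libraries, and stays near 1 for Irf1, Irf3 and Trim25, where the OIR libraries lie to the right.

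With Control 3 set aside, 13 of the 25 tested members were called higher and none lower, against 9.97% higher and 8.83% lower, together 18.8%, of all tested genes in that fit. Isg15, Bst2, Ifitm2, Ifitm3, Oasl2, Irgm1 and Ifi27 were added and Irf1 was lost. The median log2 fold change of the tested members was then 0.43, against 0.00 over all genes. Without both Control 3 and OIR 2, 18 members were called higher, beside 17.3% higher and 16.0% lower, together 33.3%, of all tested genes, from 2 libraries in each group.

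Of 31 further regulators in the files, 17 were tested, 2 rose and none fell, a share higher that is near the 11.6% of all tested genes. Their median log2 fold change was 0.13, against 0.03 over all tested genes. Tyk2, the gene of the kinase at the type I receptor, was at 4.36 ± 0.174 RPKM in OIR and 3.21 ± 0.278 RPKM in Control (adjusted p 0.0168). Myd88, the adaptor of Toll-like receptors, was at 6.70 ± 0.813 RPKM in OIR and 5.12 ± 0.0673 RPKM in Control (adjusted p 0.0283, and 0.0578 without Control 3). Socs3, a feedback inhibitor of cytokine receptors, spread from 2.36 RPKM in OIR 2 to 11.1 RPKM in OIR 3, against 0.866 to 1.28 RPKM in Control, and did not pass (adjusted p 0.110). Ticam1, the adaptor of the RNA receptor TLR3, was at 2.71 ± 0.405 RPKM in OIR and 1.99 ± 0.313 RPKM in Control and did not pass (adjusted p 0.0687).

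Of 61 further interferon-stimulated genes in the files, 24 were tested, 7 rose and 3 fell, beside 11.6% higher and 7.22% lower over all tested genes. Their median log2 fold change was 0.20, against 0.03 over all tested genes. Parp10, an ADP-ribosyl transferase gene, rose to 2.95 ± 0.184 RPKM in OIR, against 1.89 ± 0.0892 RPKM in Control (adjusted p 0.00579). Lgals9, the gene of galectin-9, rose to 7.18 ± 0.912 RPKM in OIR, against 4.33 ± 0.330 RPKM in Control (adjusted p 0.00301). Cmpk2, a mitochondrial nucleotide kinase gene, fell to 2.64 ± 0.475 RPKM in OIR, against 4.27 ± 0.374 RPKM in Control (adjusted p 0.00799).

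**Figure D4:**
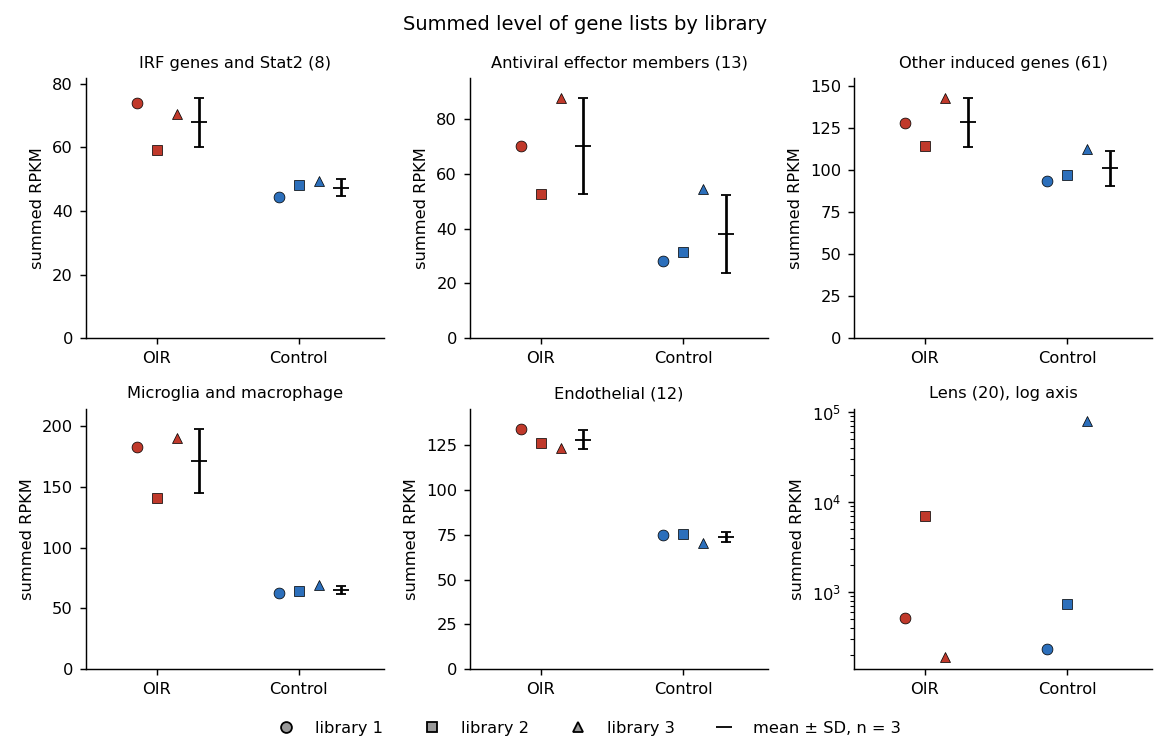
Summed RPKM of 6 gene lists in each library (y axes from 0, except the lens panel on a log axis), with mean ± SD (n = 3) on the linear panels. The microglial and endothelial sums of OIR lie apart from Control, and the effector sum of OIR 2, 52.6 RPKM, lies below that of Control 3, 54.3 RPKM.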

How the data were processed

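RNA of whole retina was measured in 3 OIR and 3 Control libraries. The authors deposited 1 RPKM value per gene symbol and library. Per the submitters' processing notes, the tools included TopHat2 2.0.12 and Bowtie2 2.0.6. The build, annotation, counting program and strand setting were not given in the sources used here. The library protocol in the labels describes another species. Whole reads were recovered from the values, within 0.02 of a read, for 17913 of 17953 detected genes (99.8%). GENCODE M21 transcript lengths were tried first. Where none made all 6 values of a gene whole, the smallest length that did was used. Some read counts may therefore not rest on an annotated length.

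The test was limma 3.58.1 in R 4.3.3 (trend and robust) on log2(RPKM + 1), with group as the only term, two-sided, with Benjamini-Hochberg adjustment over 12112 genes and a threshold of 0.05, and each adjusted p is from such a fit unless limma-voom is named. Fold changes on this scale understate low genes. The fit was tested on simulated data. Reference transcripts gave exon overlaps by gene name. Depth limits low members to few reads, and intervals cover only these libraries.

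The members, the gene lists, the role groups and the named-gene rule were chosen with earlier results of these data known. The rule names all 40 members, up to 4 tested genes by adjusted p from each further interferon list, and up to 3 from each marker list, of which some are not described. Printed promoters are those of the 5 members with the highest fold changes among those that rose, and effector stretches chosen after their values were seen. Alternatives were another scaling, pseudocount, filters, the replicate block, libraries left out, a fold threshold, and limma-voom, of which the fit with at least 10 reads in 3 libraries was chosen after seeing the data.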

Additional observations from a re-analysis of the deposited data

How the results depend on the processing

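The main counts were 7 members higher and 0 lower, and 1407 genes higher and 875 lower. With 1 library left out, the members called ranged from 3 to 13 higher and 0 to 1 lower, the genes from 513 to 1754 higher and 212 to 1293 lower, and the median log2 fold change of tested members, 0.35 with all libraries, from 0.28 to 0.44. Without Control 3 and OIR 2, 18 members were higher, 1943 genes were lower and the median was 0.53. limma-voom on reads called 12 members higher (median 0.48), and 11 with at least 10 reads in 3 libraries (median 0.48). A log2 fold change of at least 1 left 1 member (Irf7), and 115 genes higher and 4 lower. A pseudocount of 0.1 gave a median of 0.46, and no filter a median of 0.21 and 529 genes lower. Median-of-ratios scaling called 6 members, and 1283 genes higher and 1312 lower, so the higher share of all calls fell to 49.4% under that scaling, against 61.7% without it. The log2 fold change of Igtp was -0.0044 with median-of-ratios scaling, -0.13 without OIR 2, -0.04 without Control 1, -0.052 without Control 3 and OIR 2, and up to 0.15 with another library left out. The causes were not tested.

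The replicate block called 11 members higher, adding Isg15, Ifitm2, Ifitm3 and Ifi27, and 1222 genes higher and 809 lower. The deviations of same-numbered libraries from their group means correlated at 0.22, -0.44 and -0.41. Those of OIR 2 and Control 3, the libraries with the most lens reads, correlated at 0.49. Shifts of whole libraries enter these correlations, so they cannot decide whether the numbers mark a shared litter or batch. The labels do not say.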

Other observations

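The further interferon-stimulated genes held 6 genes that make or load peptides for class I molecules. They were grouped here after their values were seen and with no test of the group. Of the 5 tested 4 rose, beside 11.6% higher and 7.22% lower over all tested genes. Since the group was picked from values already seen, its count is a description. Psmb8, an immunoproteasome subunit gene, was at 3.17 ± 0.915 RPKM in OIR and 1.52 ± 0.383 RPKM in Control (SD, n = 3 each; limma adjusted p 0.0185). The peptide transporter gene Tap1 was at 1.72 ± 0.419 RPKM in OIR and 1.005 ± 0.0985 RPKM in Control (adjusted p 0.0256). Tapbp, the gene of tapasin, was at 24.0 ± 3.24 RPKM in OIR and 17.2 ± 0.478 RPKM in Control (adjusted p 0.00953). Tap2, the partner of Tap1, was at 3.51 ± 0.570 RPKM in OIR and 2.47 ± 0.336 RPKM in Control (adjusted p 0.0377, and 0.102 without Control 3). Psmb10, another immunoproteasome subunit gene, overlapped between the groups, at 7.31 ± 1.26 RPKM in OIR and 6.49 ± 0.605 RPKM in Control (adjusted p 0.421). Psmb9, also a subunit gene, was not tested by limma and did not pass by limma-voom (adjusted p 0.153), at 1.19 ± 0.326 RPKM in OIR and 0.683 ± 0.243 RPKM in Control.

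Control 3 was at least 1.5 times the mean of Control 1 and Control 2 in 24 of 60 further interferon-stimulated genes detected in any library, 40%, against 12.5% of all genes detected. Among them were Ddx60, at a ratio of 3.38, Trim34a at 2.44, Gbp6 at 2.15, Lgals3bp at 2.05 and Eif2ak2 at 2.05. In Lgals3bp the OIR mean was 10.7 ± 2.35 RPKM and the Control mean 6.29 ± 2.85 RPKM, with an adjusted p of 0.194, or 0.0159 without Control 3.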
